A study of Homo sapiens with 12 samples.

Results

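The 43 genes described here are effectors and signalling components of the interferon response, the programme that cells switch on when they sense a virus or receive an interferon. They were taken by name, as rows of the deposited count table whose symbol was on a list of interferon-stimulated genes. The list was chosen with earlier results of these data known, so it is not independent of them. The OAS, IFIT, IFITM, GBP and TRIM families and the RNA sensors were left out of that list. All 43 were found among the 24302 features of the table. Of these, 40 passed the filter on low counts and were tested, and CMPK2, EPSTI1 and XAF1 did not pass it.

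RNA was measured in KYSE150, an established human cell line from a squamous carcinoma of the esophagus, in 12 libraries that fall into 4 groups of 3. The cells carried GFP fused to unaltered TFAP2β (called WT), GFP-TFAP2β mutated in its intrinsically disordered region IDR3 (Mut_IDR3), GFP-TFAP2β without that region (dIDR3, for ΔIDR3 in the labels), or GFP by itself (GFP). TFAP2β, encoded by TFAP2B, belongs to the AP-2 transcription factors, and the series presents the altered forms as deficient in phase separation. All groups were grown in the same medium, and the labels say neither how the constructs were introduced nor whether a group was 1 clone or its replicates came from separate cultures, so the p-values reflect only how these libraries vary, which may be technical.

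The libraries held 30.7 M to 43.5 M counts. TFAP2B averaged 280 ± 45.6 CPM (counts scaled to library size) in WT, 702 ± 25.9 in Mut_IDR3 and 704 ± 62.8 in dIDR3, against 0.124 ± 0.142 in GFP (SD, n = 3 each), so the mutant groups held more TFAP2B RNA than WT, and the part of that difference in the results below was not tested. All 14 markers of squamous epithelium had a mean of at least 1 CPM over the 12 libraries, and their levels in single groups are not given here. Of 16 leukocyte markers, 9 were at 0 in all libraries, among them PTPRC and the plasmacytoid dendritic cell genes CLEC4C and LILRA4, and the 16 together summed to 1.96 to 2.32 CPM in WT and 1.51 to 2.30 CPM in GFP. The 14 squamous markers summed to 7738 to 9073 CPM in WT and 6473 to 6765 CPM in GFP, with 6 called higher and 6 lower. In that comparison 54.9% of all features were called. Their log2 fold changes in WT against GFP ran from -5.49 to 1.83. The 7 fibroblast markers, of which FAP was at 0 throughout, summed to 5.34 to 6.56 CPM in WT and 2.61 to 3.68 CPM in GFP, and the part of these shifts in the results was not tested. In bulk RNA, fewer cells of a kind and less RNA per cell cannot be told apart.

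Interferons bind receptors on the cell surface, and kinases of the JAK family then phosphorylate transcription factors of the STAT family. Type I and type III interferons act largely through ISGF3, a complex that contains STAT2 and IRF9 and binds the interferon-stimulated response element (ISRE) in promoters. Many of the genes switched on in this way limit viruses directly, by degrading RNA, stopping translation or trapping particles, and ISG15, a ubiquitin-like protein, is joined to other proteins by its own set of enzymes.

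The promoters of the 4 genes with the largest rises in WT against GFP among members at or above 5 CPM, and of MX1, which did not pass the test, are shown because the element bound by ISGF3 can be read in them. Each runs 5′ to 3′ on the strand of the gene, from RefSeq on GRCh38.p14, and capitals mark the ISRE core GAAANNGAA, searched on both strands. The windows lie at chr4:88456869-88457168 (plus strand) for HERC5, chr1:1013247-1013546 (plus) for ISG15, chr1:27672143-27672442 (minus) for IFI6, chr15:88638766-88639065 (plus) for ISG20 and chr21:41420308-41420607 (plus) for MX1, the first of its 3 listed windows.
HERC5: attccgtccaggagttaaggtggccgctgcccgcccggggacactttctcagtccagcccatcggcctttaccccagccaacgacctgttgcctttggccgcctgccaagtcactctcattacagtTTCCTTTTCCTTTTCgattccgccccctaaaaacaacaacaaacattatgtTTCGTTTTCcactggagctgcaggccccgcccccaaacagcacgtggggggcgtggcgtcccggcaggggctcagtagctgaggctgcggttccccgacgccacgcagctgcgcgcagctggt
ISG15: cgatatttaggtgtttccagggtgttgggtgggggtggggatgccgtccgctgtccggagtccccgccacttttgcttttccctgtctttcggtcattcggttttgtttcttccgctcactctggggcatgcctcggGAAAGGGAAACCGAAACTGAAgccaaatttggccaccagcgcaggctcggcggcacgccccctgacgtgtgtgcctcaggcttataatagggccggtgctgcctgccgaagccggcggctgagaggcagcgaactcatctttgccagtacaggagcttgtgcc
IFI6: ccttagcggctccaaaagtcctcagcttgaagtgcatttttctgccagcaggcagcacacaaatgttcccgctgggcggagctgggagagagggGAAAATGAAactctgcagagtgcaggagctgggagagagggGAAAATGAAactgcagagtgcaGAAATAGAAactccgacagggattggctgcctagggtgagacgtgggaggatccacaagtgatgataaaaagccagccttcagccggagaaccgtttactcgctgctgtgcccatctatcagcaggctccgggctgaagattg
ISG20: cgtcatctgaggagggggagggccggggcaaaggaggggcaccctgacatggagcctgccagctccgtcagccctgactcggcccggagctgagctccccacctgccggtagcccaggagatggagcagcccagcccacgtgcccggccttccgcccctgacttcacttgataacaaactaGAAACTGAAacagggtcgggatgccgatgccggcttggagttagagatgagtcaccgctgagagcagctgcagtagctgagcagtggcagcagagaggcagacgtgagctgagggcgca
MX1: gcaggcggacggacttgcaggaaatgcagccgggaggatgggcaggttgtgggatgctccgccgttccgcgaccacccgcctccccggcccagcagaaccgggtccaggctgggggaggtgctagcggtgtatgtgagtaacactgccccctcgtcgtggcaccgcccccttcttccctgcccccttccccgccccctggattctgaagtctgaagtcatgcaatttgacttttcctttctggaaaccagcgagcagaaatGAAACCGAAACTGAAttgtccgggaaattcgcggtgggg

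HERC5 held 3 cores, all on the reverse strand, whose first bases lay 124, 118 and 73 bases before the start, and 1 pair of them overlapped. In ISG15, 3 cores ran into each other on the forward strand, 113, 107 and 101 bases before the start. IFI6 carried 3 separate cores, 156, 115 and 93 bases before the start, and ISG20 carried 1, 69 bases before it. The 2 overlapping cores of MX1 began 11 and 17 bases after the transcription start to which that window belongs. MX1 thus held the core like the 4 genes with the largest rises, though after that transcription start and not before it. It did not pass the main test in WT against GFP, but it was called with limma-voom (adjusted p = 0.0369).

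Of the 37 members with a listed window, 22 (59.5%) held the ISRE core, against 9.86% of all 27305 genes with windows. The core was present in 13 of 21 members that rose in WT, 2 of 3 that fell and 5 of 10 tested members that were not called. The gamma-activated site TTCNNNGAA, bound by STAT dimers, was present in 12 of 37 members (32.4%) against 9.38% of all genes, and the AP-2 motif GCCNNNGGC in 12 of 37 (32.4%) against 26.6%. Among the promoters printed above, the AP-2 motif occurred in HERC5, 160 bases before the start, and in ISG15, 41 and 3 bases before it, with no overlap with an ISRE core. A match describes letters and not a bound site.

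The comparison of WT with GFP asks what the unaltered protein changed. Of the 40 tested members, 27 rose, 3 fell and 10 were not called (edgeR's quasi-likelihood test, Benjamini-Hochberg adjusted p under 0.05 over all 14792 features tested). Calls were frequent in this comparison, at 54.9% of all features in either direction, 27.7% for a rise and 27.1% for a fall. The median log2 fold change of the members was 0.78, against -0.01 over all features, and 17 members were at least 2-fold higher while 1 was at least 2-fold lower. The share of all features that changed at least 2-fold is not given here, so the 2-fold counts have no background to be read against. Summed over the 43 members, the level was 3534, 3736 and 3871 CPM from the lowest to the highest WT library, against 1758, 1777 and 1798 CPM in the GFP libraries. ISG15 made up much of that gap, and without it the WT libraries ranged from 2379 to 2605 CPM and the GFP libraries from 1725 to 1762 CPM.

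**Figure D1:**
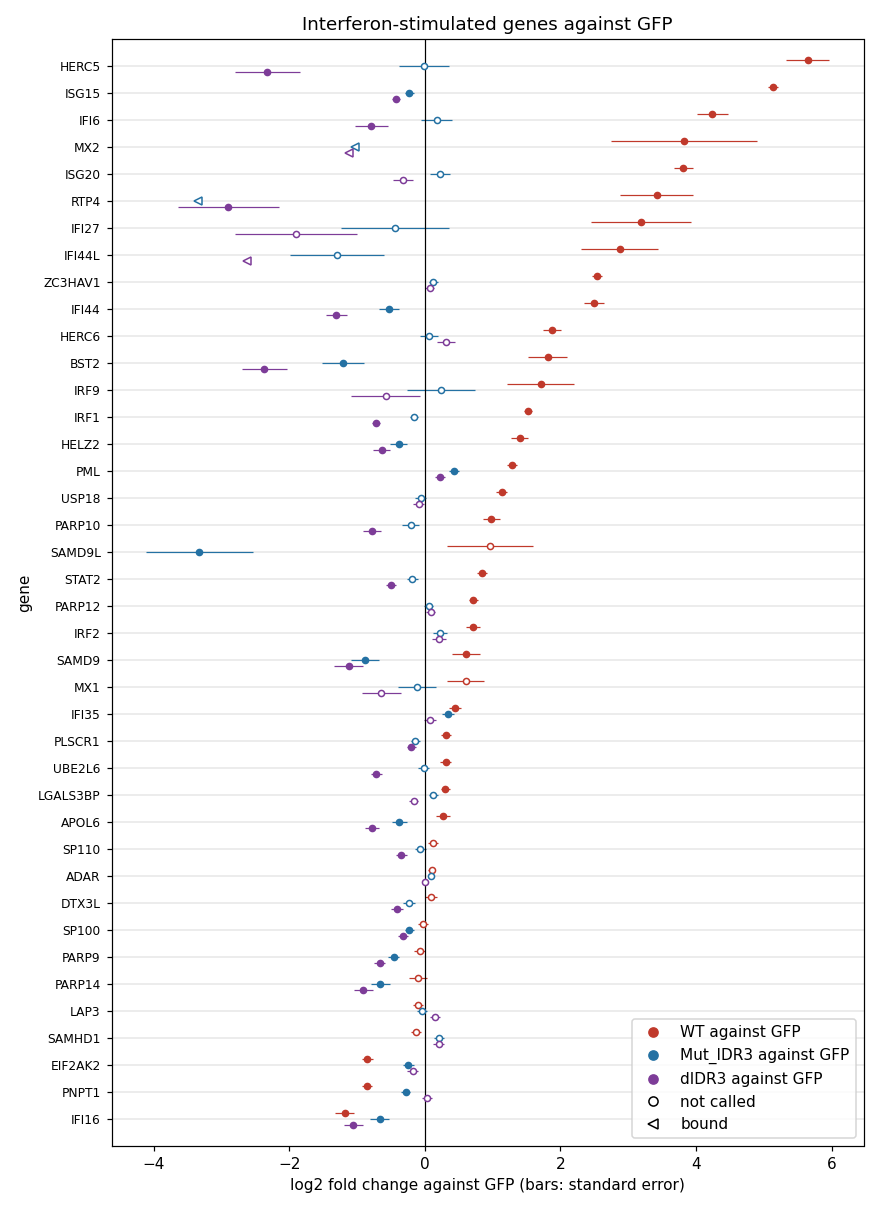
Log2 fold change against GFP (x axis) of the 40 tested genes (y axis, ordered by WT) in WT, Mut_IDR3 and dIDR3, with bars of 1 standard error. Filled points passed the test and open points did not, triangles are bounds for groups without counts, and the ratio of SAMD9L in dIDR3, from 2 counts, is left out; WT ranges from -1.18 for IFI16 to 5.65 for HERC5, while most values of the altered forms lie at or below 0.

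The genes of ISG15 conjugation were all called in WT against GFP, 5 of 5 upward. ISG15, the modifier itself, was at 1290, 1155 and 1266 CPM in the WT libraries, 29.4, 31.7 and 28.3 CPM with Mut_IDR3, 25.1, 25.0 and 28.1 CPM with dIDR3, and 36.4, 33.2 and 35.5 CPM with GFP. The WT libraries lay far above the other 9, and every library of either mutant lay below every GFP library. The rise with WT was 35.3-fold (log2 fold change 5.14, SE 0.07, adjusted p = 3.93e-16). Per kilobase of its longest transcript ISG15 was the most abundant member in WT, at 1572 CPM per kb, ahead of LGALS3BP at 196 CPM per kb.

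HERC5, the ligase that attaches ISG15 to nascent proteins in human cells, was at 32.5, 39.9 and 37.1 CPM in WT, 0.771, 0.521 and 0.858 CPM in Mut_IDR3, 0, 0.260 and 0.169 CPM in dIDR3, and 0.464, 0.838 and 0.855 CPM in GFP. The gene was thus near silence outside WT, with 17 counts in all in dIDR3 and 80 in GFP. WT exceeded GFP 50.2-fold (log2 fold change 5.65, SE 0.32, adjusted p = 2.78e-09), the largest called rise of any member.

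HERC6, the neighbouring gene, whose mouse counterpart is the ISG15 ligase in that species, lies 14 kb upstream of HERC5 on chromosome 4. It was at 25.3, 29.9 and 30.4 CPM in WT, 6.85, 8.21 and 9.30 CPM in Mut_IDR3, 8.18, 10.2 and 10.6 CPM in dIDR3, and 7.39, 8.38 and 7.67 CPM in GFP. The WT libraries stood apart, and those of the other 3 groups overlapped. HERC6 rose 3.65-fold with WT (log2 fold change 1.87, SE 0.13, adjusted p = 3.33e-08).

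UBE2L6, the conjugating enzyme that carries ISG15, was at 92.5, 94.6 and 95.4 CPM in WT, 71.2, 81.8 and 72.3 CPM in Mut_IDR3, 52.4, 40.5 and 45.8 CPM in dIDR3, and 74.1, 76.7 and 77.6 CPM in GFP. WT was the highest group and dIDR3 the lowest, and Mut_IDR3 overlapped with GFP. The rise with WT was 1.24-fold (log2 fold change 0.31, SE 0.08, adjusted p = 0.00447), and it was not kept, with a log2 fold change of -0.025, when a trend of fold change with GC content was removed. USP18, which removes ISG15 from proteins and dampens signalling at the type I receptor, averaged 31.8 ± 1.85 CPM in WT and 14.5 ± 0.150 CPM in GFP (SD, n = 3 each), a log2 fold change of 1.14 (adjusted p = 2.85e-08). Reads of USP18 can be shared with its near-identical copy USP41, which averaged 0.816 CPM in WT and 0.576 CPM in GFP. UBA7, the activating enzyme of the same pathway, which was not on the list, averaged 2.85 ± 0.619 CPM in WT and 3.16 ± 0.833 CPM in GFP, a log2 fold change of -0.15 (adjusted p = 0.672).

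**Figure D2:**
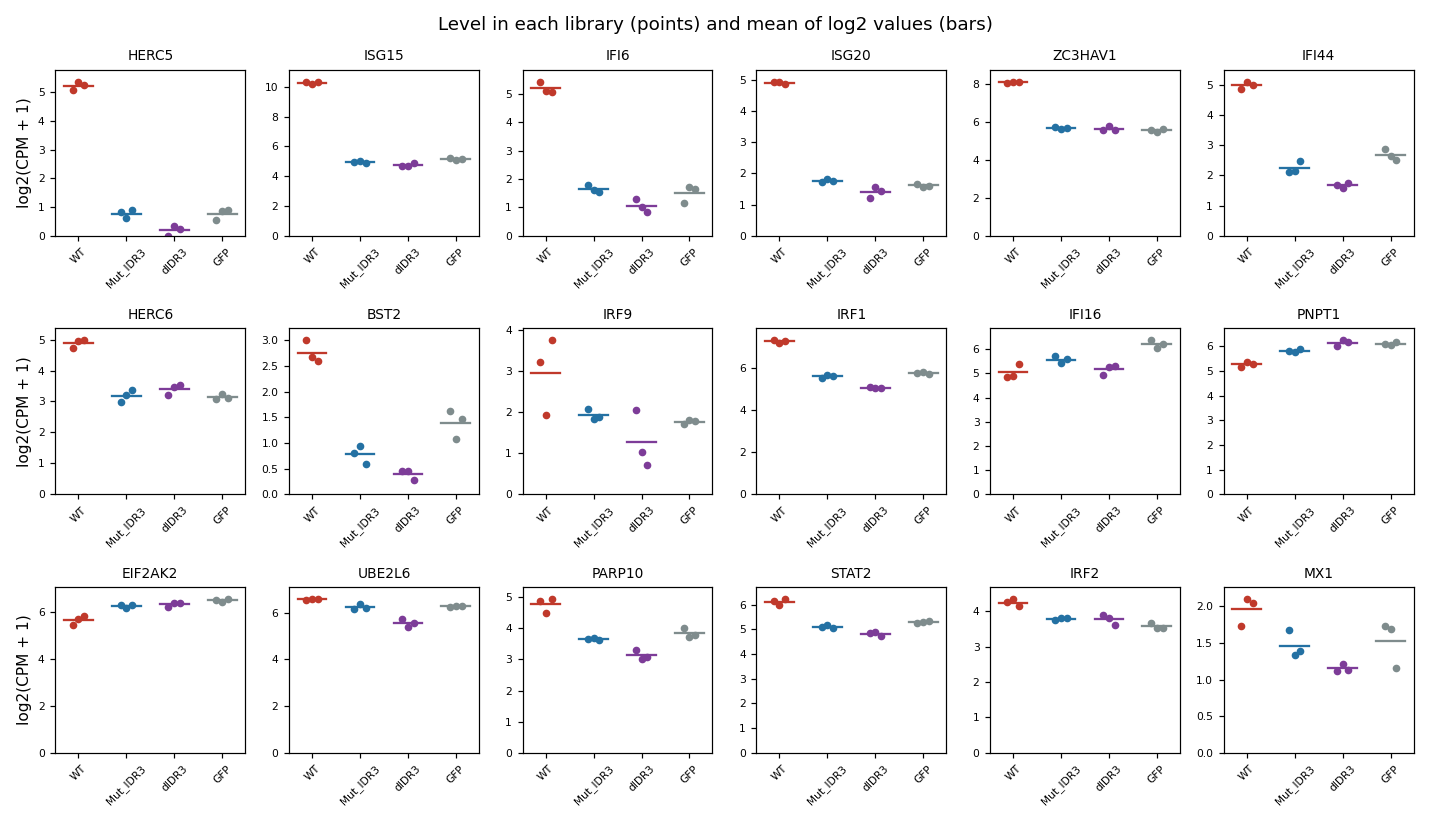
Level of 18 genes in each library, as log2(CPM + 1) on the y axis, for WT, Mut_IDR3, dIDR3 and GFP on the x axis. Points are libraries and bars the mean of the 3 log2 values; ISG15, HERC5, IFI6, ISG20 and ZC3HAV1 stand apart in WT, IRF9 scatters within WT, and IFI16, PNPT1 and EIF2AK2 are lower in WT than in GFP.

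All 4 transcription factors of the list rose with WT. STAT2, a subunit of ISGF3, was at 70.1, 62.0 and 74.1 CPM in WT, 33.5, 35.1 and 32.3 CPM in Mut_IDR3, 27.6, 28.5 and 25.2 CPM in dIDR3, and 37.2, 38.3 and 39.3 CPM in GFP. None of the 4 groups overlapped, and the rise with WT was 1.80-fold (log2 fold change 0.84, SE 0.08, adjusted p = 4.9e-07). IRF1, an activator that also answers interferon gamma, was at 158, 144 and 157 CPM in WT, 45.3, 49.4 and 48.6 CPM in Mut_IDR3, 33.3, 32.0 and 32.1 CPM in dIDR3, and 53.0, 55.4 and 52.4 CPM in GFP. The groups of IRF1 again did not overlap, and WT was 2.86-fold above GFP (log2 fold change 1.52, SE 0.06, adjusted p = 5.94e-11). IRF2, which competes with IRF1 for the same sites, was at 18.1, 19.4 and 16.7 CPM in WT, 12.5, 13.1 and 13 CPM in Mut_IDR3, 13.9, 13.1 and 11.3 CPM in dIDR3, and 11.8, 10.6 and 10.6 CPM in GFP. WT was highest in each of its 3 libraries, with a log2 fold change of 0.71 over GFP (SE 0.10, adjusted p = 3.01e-05).

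IRF9, the DNA-binding subunit of ISGF3, was less even. It was at 8.29, 2.81 and 12.4 CPM in WT, 3.25, 2.56 and 2.71 CPM in Mut_IDR3, 3.14, 1.04 and 0.629 CPM in dIDR3, and 2.26, 2.51 and 2.43 CPM in GFP. WT replicate 2 lay just above the GFP libraries and below Mut_IDR3 replicate 1. The log2 fold change of WT over GFP was 1.71 (SE 0.50, adjusted p = 0.00863), and without WT replicate 3 the adjusted p was 0.0566, in a range of 0.000856 to 0.0566 over 17 alternatives. The exons of IRF9 overlap those of a longer gene on the same strand, AL136295.5, which was at 31.7, 43.1 and 22.2 CPM in WT, 20.4, 21.5 and 18.6 CPM in Mut_IDR3, 10.8, 23.7 and 21.8 CPM in dIDR3, and 24.0, 18.9 and 21.4 CPM in GFP. The WT library lowest in IRF9 was the highest in AL136295.5, and the dIDR3 library highest in IRF9 was the lowest in AL136295.5, so the counts of IRF9 are uncertain, and how reads were divided between these genes was not tested.

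IRF7, which drives interferon genes in many cells and was not on the list, had 35 counts over the 12 libraries and was not tested. Of 23 other genes of the JAK-STAT pathway of interferon receptors, 22 were tested, and 11 rose and 7 fell with WT. Over all features 27.7% rose and 27.1% fell. The feedback inhibitor SOCS3 averaged 31.4 ± 2.19 CPM in WT and 8.0 ± 0.760 CPM in GFP (log2 fold change 1.98, adjusted p = 4.73e-09), STAT3 rose by 0.74, and the phosphatase gene PTPN11 had a log2 fold change of -0.89 (adjusted p = 2.09e-07). IFNLR1, the specific receptor chain of type III interferons, had 0 counts in all 12 libraries, which allows a level of up to 0.00661 CPM, and this limit covers counting error only. Among the ligands, the type III genes IFNL1, IFNL2 and IFNL3 had 3041, 1589 and 1933 counts in the WT libraries and 0 to 3 counts in each other group. IFNB1, a type I ligand, had 69 counts in the WT libraries and 0 in each of the other 9.

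Of 9 other genes named for IRF proteins, 6 were tested and all 6 rose with WT, where 27.7% of all features rose. IRF2BPL and IRF2BP2, of the family of IRF2-binding proteins, had log2 fold changes of 1.25 (adjusted p = 9.32e-09) and 1.07 (adjusted p = 4.29e-10). The tested genes of ISG15 conjugation and ubiquitin ligase partners outside the 43 were split, with 4 of 16 higher and 5 lower. That is 56.2% called, near the 54.9% of all features. Among them the ligase gene DTX2 rose by 1.24 on the log2 scale, while the deubiquitinase gene USP16 and the large HERC relative HERC1 fell by 1.28 and 0.77.

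Genes of nuclear bodies and DNA sensing went different ways. PML, the scaffold of PML nuclear bodies, averaged 112 ± 10.1 CPM in WT and 46.3 ± 2.24 CPM in GFP (log2 fold change 1.28, SE 0.07, adjusted p = 2.48e-09). SP100, another resident of these bodies, averaged 56.0 ± 4.37 CPM in WT and 57.0 ± 1.60 CPM in GFP (log2 fold change -0.03, adjusted p = 0.771), and its relative SP110 had a log2 fold change of 0.12 (adjusted p = 0.226). Removal of the GC trend turned the value of SP100 to 0.277 and gave SP110 a value of 0.310, both called.

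IFI16, a sensor of DNA in the nucleus and cytosol, fell more than any other tested member. It was at 27.9, 29.1 and 40.6 CPM in WT, 51.4, 41.6 and 46.8 CPM in Mut_IDR3, 29.7, 38.0 and 38.9 CPM in dIDR3, and 81.3, 65.7 and 74.5 CPM in GFP. All 9 libraries with a construct of TFAP2β lay below the 3 GFP libraries. The fall with WT was 2.27-fold (log2 fold change -1.18, SE 0.14, adjusted p = 5.48e-06). On removal of the GC trend it was -0.611 and still called.

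Of 7 tested effectors that act on RNA or nucleotides, 3 rose, 2 fell and 2 were not called. ISG20, an exonuclease that degrades RNA, was at 29.7, 29.5 and 28.0 CPM in WT, 2.31, 2.56 and 2.39 CPM in Mut_IDR3, 1.32, 1.95 and 1.69 CPM in dIDR3, and 2.17, 1.99 and 2.06 CPM in GFP. WT was 14.0-fold above GFP (log2 fold change 3.81, SE 0.14, adjusted p = 2.95e-11), and Mut_IDR3 lay slightly above GFP and dIDR3 slightly below it, without overlap. ZC3HAV1, the antiviral protein ZAP that binds CpG-rich RNA, was at 261, 270.0 and 271 CPM in WT, 52.1, 48.0 and 50.6 CPM in Mut_IDR3, 45.6, 53.0 and 46.8 CPM in dIDR3, and 46.7, 42.6 and 48.7 CPM in GFP. The WT libraries lay close together and were 5.81-fold above GFP (log2 fold change 2.54, SE 0.07, adjusted p = 8.75e-13), while the libraries of the other groups overlapped. HELZ2, a helicase and coactivator, averaged 49.4 ± 7.72 CPM in WT and 18.7 ± 2.25 CPM in GFP (log2 fold change 1.40, adjusted p = 2.65e-07).

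EIF2AK2 and PNPT1 fell. EIF2AK2, the kinase PKR that stops translation on sensing double-stranded RNA, was at 43.4, 51.7 and 55.4 CPM in WT, 77.5, 72.0 and 79.3 CPM in Mut_IDR3, 74.3, 82.8 and 82.5 CPM in dIDR3, and 90.9, 86.1 and 93.6 CPM in GFP. Every construct library lay below every GFP library, and the log2 fold change with WT was -0.85 (SE 0.08, adjusted p = 6.9e-07), which was -0.283 and still called on removal of the GC trend. PNPT1, the polynucleotide phosphorylase of mitochondria, was at 35.0, 39.8 and 37.8 CPM in WT, 55.4, 54.3 and 58.0 CPM in Mut_IDR3, 63.8, 74.4 and 70.9 CPM in dIDR3, and 68.2, 65.3 and 71.0 CPM in GFP. WT was the lowest group and dIDR3 overlapped with GFP, and the log2 fold change with WT was -0.86 (SE 0.07, adjusted p = 1.91e-07), and -0.442, also called, on removal of the GC trend. ADAR, which edits adenosine to inosine in double-stranded RNA, averaged 322 ± 12.4 CPM in WT and 300.4 ± 3.63 CPM in GFP (log2 fold change 0.10, adjusted p = 0.102), and the dNTP hydrolase SAMHD1 had a log2 fold change of -0.13 (adjusted p = 0.173). CMPK2, a nucleotide kinase of mitochondria, had 2 counts in WT and 3 in GFP, while RSAD2, whose exons overlap those of CMPK2 on the opposite strand, averaged 322 ± 28.9 CPM in WT and 2.03 ± 0.365 CPM in GFP.

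Of the genes of ADP-ribosylation, 2 of 5 rose and 3 were not called. PARP10, a mono-ADP-ribosyltransferase, was at 28.3, 21.4 and 29.8 CPM in WT, 11.7, 11.8 and 11.3 CPM in Mut_IDR3, 8.81, 7.14 and 7.43 CPM in dIDR3, and 15.2, 12.3 and 12.8 CPM in GFP. None of the groups overlapped, and WT was 1.97-fold above GFP (log2 fold change 0.98, SE 0.13, adjusted p = 1.33e-05). Its exons overlap those of GRINA on the opposite strand, at 126 ± 12.2 CPM in WT and 77.0 ± 4.78 CPM in GFP, so its counts are uncertain where strand was not used. PARP12, a related enzyme, averaged 72.0 ± 1.15 CPM in WT and 43.9 ± 1.96 CPM in GFP (log2 fold change 0.71, adjusted p = 4.41e-07). PARP14, PARP9 and DTX3L, the ligase partner of PARP9, had log2 fold changes of -0.10, -0.07 and 0.09 and were not called, and on removal of the GC trend PARP9 turned to 0.173 and DTX3L was 0.275, both called. Of 11 tested PARP genes outside the 43, 3 rose and 3 fell, which is 54.5% called, near the 54.9% of all features. Among them PARP4 and TNKS2 fell by 0.50 and 0.54 on the log2 scale, and PARP1 rose by 0.16.

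Of 5 virus restriction factors, 3 rose. BST2, or tetherin, which holds budding virus at the cell surface, was at 7.0, 5.39 and 5.09 CPM in WT, 0.739, 0.913 and 0.510 CPM in Mut_IDR3, 0.374, 0.364 and 0.218 CPM in dIDR3, and 2.09, 1.12 and 1.76 CPM in GFP. The 4 groups did not overlap and stood in the order WT, GFP, Mut_IDR3, dIDR3. WT was 3.51-fold above GFP (log2 fold change 1.81, SE 0.29, adjusted p = 8.02e-05). SAMD9, which restricts poxviruses, averaged 75.7 ± 22.4 CPM in WT and 49.6 ± 6.54 CPM in GFP, a log2 fold change of 0.61 (adjusted p = 0.0193), and its adjusted p was 0.13 without WT replicate 3 and 0.0762 without GFP replicate 2, in a range of 5.42e-05 to 0.13 over 17 alternatives.

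The pair of Mx genes lies 10.9 kb apart on chromosome 21 and encodes dynamin-like GTPases. MX2 had 91 counts in the WT libraries and 6 in GFP, all in 1 of its 3 libraries, with an adjusted p of 0.0109 that was 0.291 with DESeq2 and ranged from 0.000772 to 0.291 over 16 alternatives. MX1 was at 2.31, 3.29 and 3.14 CPM in WT, 2.19, 1.51 and 1.62 CPM in Mut_IDR3, 1.17, 1.32 and 1.19 CPM in dIDR3, and 2.32, 2.23 and 1.23 CPM in GFP. WT and GFP overlapped, since WT replicate 1 lay below GFP replicate 1, and the log2 fold change of 0.60 did not pass the test (SE 0.28, adjusted p = 0.0787). With limma-voom MX1 was called higher, at 0.687 (adjusted p = 0.0369). SAMD9L, 12 kb from SAMD9 on chromosome 7, averaged 1.59 ± 0.369 CPM in WT and 0.815 ± 0.373 CPM in GFP (log2 fold change 0.97, adjusted p = 0.218). SAMD9L was likewise called higher with limma-voom, at 1.016 (adjusted p = 0.0481).

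**Figure D3:**
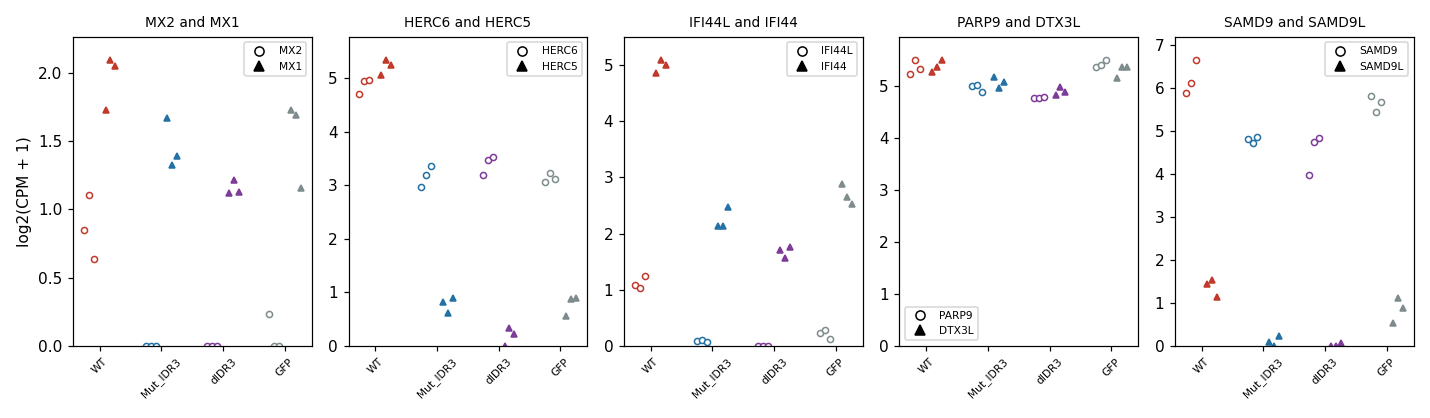
Levels of 5 pairs of neighbouring genes in each library, as log2(CPM + 1) on the y axis, for WT, Mut_IDR3, dIDR3 and GFP on the x axis, with open circles for the first gene named and triangles for the second. HERC5 and HERC6 are both highest in WT, MX2 has no counts in either mutant while MX1 does, and PARP9 and DTX3L, which overlap, are lowest in dIDR3.

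Among 10 other tested interferon-induced proteins 9 rose. IFI6, a membrane protein that limits flavivirus replication, was at 41.8, 33.1 and 32.6 CPM in WT, 2.44, 2.06 and 1.93 CPM in Mut_IDR3, 1.45, 1.04 and 0.798 CPM in dIDR3, and 1.22, 2.33 and 2.13 CPM in GFP. WT was 18.9-fold above GFP (log2 fold change 4.24, SE 0.23, adjusted p = 1.72e-09), and both mutants overlapped with GFP. IFI44 was at 28.2, 33.3 and 30.9 CPM in WT, 3.38, 3.42 and 4.57 CPM in Mut_IDR3, 2.25, 1.97 and 2.40 CPM in dIDR3, and 6.40, 5.31 and 4.74 CPM in GFP. Here the 4 groups did not overlap, with WT 5.62-fold above GFP (log2 fold change 2.49, SE 0.15, adjusted p = 5.27e-09).

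IFI44L, 3.6 kb from IFI44, was much scarcer, with 133 counts in the WT libraries and 17 in GFP (log2 fold change 2.87, adjusted p = 0.000779). RTP4, a chaperone of membrane receptors, and IFI27 were likewise scarce and averaged 2.92 ± 0.774 and 2.36 ± 0.390 CPM in WT, against 0.267 ± 0.130 and 0.252 ± 0.128 CPM in GFP. The abundant genes LGALS3BP, which encodes a secreted glycoprotein that binds galectins, PLSCR1, a phospholipid scramblase, and IFI35 rose by 0.30, 0.31 and 0.44 on the log2 scale. Of these, LGALS3BP and IFI35 lost their call on removal of the GC trend, LGALS3BP at -0.020. APOL6, of the apolipoprotein L family, had a log2 fold change of 0.26 (adjusted p = 0.0461) that was not called without any single WT library or without GFP replicate 1 or 3, and the aminopeptidase gene LAP3 had -0.11 (adjusted p = 0.259), which was -0.228 and called on removal of the GC trend.

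EPSTI1 and XAF1, an antagonist of the apoptosis inhibitor XIAP, were lower with WT than with GFP, at very low counts. EPSTI1 had 0 counts in WT and 15 in GFP, at least 5.07-fold lower with a floor of 3 counts over the group. XAF1 had 2 counts in WT and 20 in GFP, a ratio of GFP over WT of 10.1 with a 95% counting interval of 2.46 to 89.4. Among relatives of the effectors, 12 of 26 tested genes rose with WT and 6 fell, where 27.7% of all features rose and 27.1% fell. Those of lowest adjusted p were LGALS1, PLSCR3 and APOL1, with rises of 1.15, 0.97 and 2.94 on the log2 scale.

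The comparison of each mutant with WT asks what the altered forms lacked. With Mut_IDR3, 32 of 40 members were lower than in WT, 4 were higher and 4 were not called, where 44.1% of all features were called, 20.9% lower and 23.2% higher. With dIDR3, 34 members were lower than in WT, 4 were higher and 2 were not called, where 52.3% of all features were called, 25% lower and 27.2% higher. The median log2 fold change of the members was -0.94 for Mut_IDR3 and -1.24 for dIDR3, against 0.03 over all features in each comparison. Both comparisons use the same WT libraries and are given side by side.

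Genes with large rises in WT were far below WT in the mutants. The rises were measured in the same WT libraries, so these falls are not separate support for them. HERC5 was 50.6-fold lower in Mut_IDR3 than in WT (log2 fold change -5.66, SE 0.32, adjusted p = 3.54e-09) and 251-fold lower in dIDR3 (log2 fold change -7.97, SE 0.38, adjusted p = 5.55e-10). ISG15 was 41.5-fold and 47.4-fold lower, with adjusted p of 2.16e-16 and 1.7e-16. IFI6 was 16.8-fold lower in Mut_IDR3 and 32.7-fold lower in dIDR3, and ISG20 was 12-fold and 17.6-fold lower. RTP4 had 0 counts in Mut_IDR3 and 320 in WT, at least 108-fold lower with the floor of 3 counts over the group. MX2 had 0 counts in either mutant, at least 30.6-fold lower in Mut_IDR3 and at least 32.6-fold lower in dIDR3 than in WT, and IFI44L had 0 counts in dIDR3, at least 47.7-fold lower. RTP4, MX2 and IFI44L passed the filter on low counts through their WT libraries, so that filter favoured falls from WT among such genes. SAMD9L, which was not called in WT against GFP, was 19.6-fold lower in Mut_IDR3 than in WT (log2 fold change -4.29, adjusted p = 0.00049), and its counts of 2 in dIDR3 and 175 in WT gave a ratio of WT over dIDR3 of 94.1 with a 95% counting interval of 25.7 to 783.

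Several roles were lower throughout. All 5 genes of ISG15 conjugation, all 4 transcription factors, all 5 genes of ADP-ribosylation and all 5 virus restriction factors were lower than in WT with each mutant. On removal of the GC trend UBE2L6 was not called in Mut_IDR3 against WT (-0.156, adjusted p = 0.12). MX1, which was not called between WT and GFP, was lower than WT with Mut_IDR3 (log2 fold change -0.72, adjusted p = 0.0475) and with dIDR3 (-1.25, adjusted p = 0.00173), and the adjusted p with Mut_IDR3 was 0.113 to 0.143 without WT replicate 2 or 3 or Mut_IDR3 replicate 2 or 3, in a range of 0.0338 to 0.143 over 17 alternatives. IRF9 was called with both, at -1.47 (adjusted p = 0.0244) and -2.29 (adjusted p = 0.00153), although its libraries overlapped with those of WT, and the call with Mut_IDR3 was lost without WT replicate 1 or 3 or Mut_IDR3 replicate 2 or 3.

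EIF2AK2, PNPT1 and SAMHD1 were higher than in WT with each mutant. EIF2AK2 was higher by 0.60 on the log2 scale with Mut_IDR3 and by 0.67 with dIDR3 (adjusted p = 3.4e-05 and 7.57e-06), PNPT1 by 0.57 and 0.89 (1.91e-05 and 1.54e-07) and SAMHD1 by 0.34 and 0.33 (0.00218 and 0.0021). IFI16 was higher with Mut_IDR3 by 0.52 (adjusted p = 0.00786), whereas its log2 fold change of 0.12 with dIDR3 did not pass the test. On removal of the GC trend IFI16 was not called with Mut_IDR3 (0.178, adjusted p = 0.267) and SAMHD1 was not called with dIDR3 (0.17, adjusted p = 0.0749), while EIF2AK2 stayed higher by 0.273 and 0.242 and PNPT1 by 0.311 and 0.547. LAP3 was higher with dIDR3 by 0.25 (adjusted p = 0.0111), a call lost without dIDR3 replicate 1 or 2, and was not called with Mut_IDR3 (0.06). ADAR was not called in either comparison, with log2 fold changes of -0.01 and -0.10.

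The altered forms were also compared with GFP. With Mut_IDR3, 2 members were higher than with GFP, 14 were lower and 24 were not called, where 21.1% of all features were called, 11.2% higher and 9.85% lower. With dIDR3, 1 member was higher, 22 were lower and 17 were not called, where 29% of all features were called, 15.6% higher and 13.4% lower. The median log2 fold change of the members was -0.18 for Mut_IDR3 and -0.54 for dIDR3, against -0.01 and -0.02 over all features. The members summed to 1698 to 1740 CPM with Mut_IDR3 and 1515 to 1562 CPM with dIDR3, each range below the 1758 to 1798 CPM of the GFP libraries. These comparisons, and that of WT with GFP, share the GFP libraries.

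None of the 17 members at least 2-fold higher with WT was raised in a mutant except PML, which was above GFP by 0.43 with Mut_IDR3 (adjusted p = 0.00107) and by 0.23 with dIDR3 (adjusted p = 0.0267). The other member higher with Mut_IDR3 was IFI35, at 0.34 (adjusted p = 0.0119). It lost its call without Mut_IDR3 replicate 2 and on removal of the GC trend (0.193, adjusted p = 0.12). BST2 fell by 1.20 on the log2 scale with Mut_IDR3 (SE 0.31, adjusted p = 0.0136) and by 2.37 with dIDR3 (SE 0.33, adjusted p = 0.000119). IFI44 fell by 0.53 and 1.31 (adjusted p = 0.023 and 2.74e-05), and SAMD9 by 0.89 and 1.13 (adjusted p = 0.00866 and 0.00103). SAMD9L had 9 counts in Mut_IDR3, 2 in dIDR3 and 89 in GFP, a log2 fold change of -3.33 for Mut_IDR3 (adjusted p = 0.00931) and, for GFP over dIDR3, a ratio of counts of 48.5 with a 95% counting interval of 13 to 407.

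Other genes below GFP with dIDR3 included HERC5 (log2 fold change -2.32, SE 0.48, adjusted p = 0.0023), IRF1 (-0.72, adjusted p = 9.43e-07), UBE2L6 (-0.72, adjusted p = 1.8e-05), PARP14 (-0.91, adjusted p = 0.000221) and STAT2 (-0.50, adjusted p = 0.000329). With Mut_IDR3 the values of HERC5, IRF1, UBE2L6 and STAT2 were -0.01, -0.16, -0.02 and -0.19 and were not called, and PARP14 was at -0.66 (adjusted p = 0.00462). On removal of the GC trend IRF1 (-0.287, adjusted p = 0.000933) and STAT2 (-0.278, adjusted p = 0.0195) were called lower with Mut_IDR3 too. Both were also called when only the 2 groups compared were fitted (adjusted p = 0.0404 and 0.0313). RTP4, with 0 counts in Mut_IDR3 and 30 in GFP, was at least 10.2-fold lower. With Mut_IDR3 the call of BST2 was lost without Mut_IDR3 replicate 3 or GFP replicate 1, and that of IFI44 without Mut_IDR3 replicate 1 or 2 or GFP replicate 1. The call of IFI44 with Mut_IDR3 was also lost on removal of the GC trend (-0.304, adjusted p = 0.186). The count of 14 members lower with Mut_IDR3 was 8 without Mut_IDR3 replicate 2 or replicate 3 and 9 without GFP replicate 1 or replicate 3. The share of all features called fell as well, from 21.1% to between 10.3% and 14.9% in those fits. The call of PML with dIDR3 was lost without dIDR3 replicate 1 or replicate 3 and without GFP replicate 2 or replicate 3, which left 0 members higher.

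The comparison of Mut_IDR3 with dIDR3 tests the difference between the altered forms. Mut_IDR3 was higher for 13 members, lower for 1 and not called for 26, where 10.8% of all features were called, 5.54% higher and 5.24% lower. The median log2 fold change of the members was 0.25, against -0.01 over all features. TFAP2B itself averaged 702 CPM in Mut_IDR3 and 704 CPM in dIDR3. The largest called difference among members with at least 5 CPM was that of UBE2L6, 1.62-fold higher in Mut_IDR3 (log2 fold change 0.70, SE 0.08, adjusted p = 0.000134), followed by PARP10 at 0.57 (SE 0.13, adjusted p = 0.0131) and IRF1 at 0.56 (SE 0.06, adjusted p = 6.22e-05). In each of these genes the libraries of the mutants did not overlap.

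HERC5 differed by 2.31 on the log2 scale at low counts, 81 in Mut_IDR3 and 17 in dIDR3 (SE 0.48, adjusted p = 0.00745). BST2, IFI6, IFI44 and ISG20 were higher in Mut_IDR3 by 1.17, 0.96, 0.78 and 0.55, with adjusted p of 0.0443, 0.0211, 0.00627 and 0.0243. IFI44L had 7 counts in Mut_IDR3 and 0 in dIDR3, at least 2.49-fold higher. STAT2, LGALS3BP, SP110 and APOL6 were higher by 0.31, 0.29, 0.28 and 0.41. PNPT1 was the member lower in Mut_IDR3, with a log2 fold change of -0.32 (adjusted p = 0.0121). UBE2L6, IRF1, HERC5 and IFI44 kept their call whichever library was left out, and the other 9 did not. HERC5 lost its call with limma-voom (adjusted p = 0.0519) and with only the 2 groups compared (adjusted p = 0.0553). The count of 13 was 9, 5 and 11 without Mut_IDR3 replicate 1, 2 and 3, and 10, 7 and 8 without dIDR3 replicate 1, 2 and 3. The share of all features called was 5.4% to 7.55% in these fits, against 10.8% in the main fit. PNPT1 lost its call without Mut_IDR3 replicate 1 or 2 and without dIDR3 replicate 2 or 3.

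**Figure D4:**
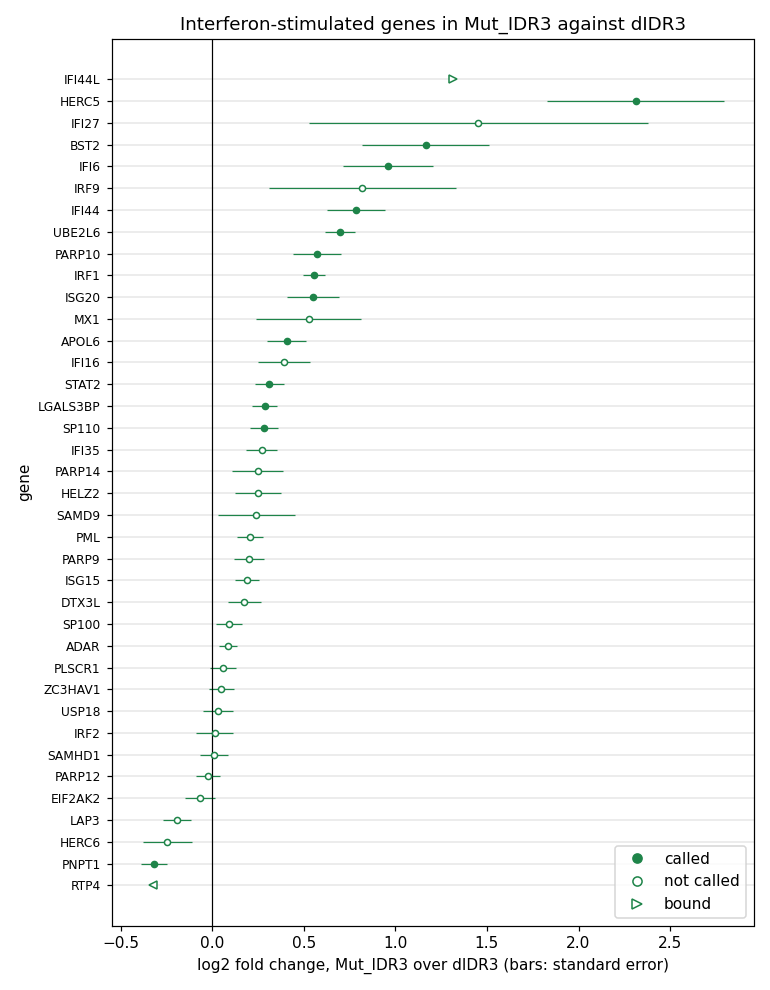
Log2 fold change of Mut_IDR3 over dIDR3 (x axis) for 38 of the genes (y axis), with bars of 1 standard error; filled points passed the test, open points did not, and triangles are bounds for a group without counts. Most points lie to the right of 0, with HERC5 at 2.31 and UBE2L6, PARP10 and IRF1 between 0.56 and 0.70, and PNPT1 at -0.32 is the called gene to the left.

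The order of the groups differed between genes. WT was the highest group for 32 of the 43 members, GFP for 7, dIDR3 for 3 and Mut_IDR3 for 1. The lowest group was dIDR3 for 26 members, GFP for 7, WT for 6 and Mut_IDR3 for 1, RTP4, while MX2, XAF1 and CMPK2 had 0 counts in both mutants. Members with a mean under 1 CPM numbered 4 in WT, 10 in Mut_IDR3, 10 in dIDR3 and 9 in GFP.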

How the data were processed

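The values are raw counts per gene, used as deposited. The submitters' processing notes name Trim Galore, HISAT2, StringTie and GRCh38/hg38, and how reads were counted, on which annotation and whether by strand is not given in the sources used here. Libraries were made from total RNA with a SMARTer mRNA kit, per the labels' protocols. Genes that overlap on opposite strands (PARP9 and DTX3L, EIF2AK2 and GPATCH11, SP110 and SP140, IRF1 and AC116366.3, PARP10 and GRINA, CMPK2 and RSAD2) are therefore uncertain. The members and lists were chosen with earlier results of these data known.

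Of 24302 features, 14792 passed edgeR's filterByExpr. After TMM scaling, edgeR's quasi-likelihood fit took in all 4 groups (8 residual degrees of freedom), and p-values of its F test were adjusted by Benjamini-Hochberg over all features tested. A gene was called at an adjusted p under 0.05. SE stands for the standard error of log2 fold changes, and ± precedes an SD. For 3 libraries against 3, the smallest exact p is 0.1. A group without counts was given a floor of 3 counts, and bounds and 95% intervals cover counting error only. Groups were taken from the labels. The filter kept low genes through the group in which they were high. Same-numbered libraries of different groups had correlations of their deviations between -0.28 and 0.32, so the numbers were not treated as pairs. No 2 replicates differed by so little that they could be 1 library.

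Levels in each library are given for members at or above 5 CPM in the higher of the groups that had the 10 largest rises or up to 4 largest falls in WT against GFP or the 3 largest differences between the mutants, and for STAT2, IRF9, IRF1 and IRF2. MX1, SAMD9L and MX2 were singled out after their values were seen. Outside the members, each list gave up to 3 called genes, those of lowest adjusted p, and IRF7 and UBA7 are always given. Some genes that met this rule are not reported here. IFNLR1, IFNB1, IFNL1, IFNL2, IFNL3, USP41 and the genes that overlap members were named after their values were seen.

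Promoter windows came from RefSeq (GRCh38.p14), matched by symbol. Windows for APOL6, IRF2, MX2, PARP10, PML and USP18 were not used here. Lengths, GC content and coordinates came from GENCODE on GRCh38. The alternatives tried were DESeq2, limma-voom, upper-quartile and median-ratio scaling, at least 1 CPM in 3 libraries as the filter, no filter at all, the replicate number in the model, removal of the trend with GC content over 20 bins (12724 of 14792 features had a value), an adjusted p under 0.01, only the 2 groups compared and single libraries left out. The code was tested on simulated data. DESeq2 1.42.0, edgeR 4.0.16 and limma 3.58.1 ran under R 4.3.3.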

Additional observations from a re-analysis of the deposited data

How the results depend on the processing

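In WT against GFP the members called higher numbered 26 to 29 and those called lower 3 to 4 under the alternatives in scaling, filter, tool, GC correction and samples at the same threshold, and 24 to 27 and 3 to 4 with single libraries left out. The share of all features called was 39.5% to 62.6% under the same alternatives and 48.4% to 55% with single libraries left out. Their median log2 fold change lay between 0.72 and 0.81 when all libraries were kept. The counts for the altered forms against GFP, and for one against the other, moved more. In Mut_IDR3 against GFP, 1 member was higher and 6 lower at an adjusted p under 0.01, 4 were higher when only these groups were fitted, and single libraries left out gave 1 to 2 higher and 8 to 11 lower. The share of all features called moved too, from 21.1% to 9.12%, 31.1% and 10.3% to 15% under these settings. In dIDR3 against GFP, 2 members were higher with limma-voom and 2 with only these groups fitted, 0 on removal of the GC trend, 0 with that and the replicate block, 0 at an adjusted p under 0.01, and 0 to 1 with single libraries left out. The share of all features called, 29% in the main fit, was 35.1% with only these groups, 16.9% at the stricter threshold and 20.5% to 23.5% with single libraries left out. In Mut_IDR3 against dIDR3, 8 members were higher with limma-voom, 4 were higher and 0 lower at an adjusted p under 0.01, and single libraries left out gave 5 to 11 higher and 0 to 1 lower. Here the share of all features called went from 10.8% to 11.5%, 4.03% and 5.4% to 7.55%. The stricter threshold lowers counts by its construction, and otherwise the cause was not tested.

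Removal of the GC trend turned the direction of some values in WT against GFP. SP100 went from -0.03 to 0.277 (0.277 with the replicate block as well) and PARP9 from -0.07 to 0.173. The called rises of LGALS3BP, 0.30, and UBE2L6, 0.31, went to -0.020 (-0.020) and -0.025 (-0.026) and were lost. In Mut_IDR3 against WT it turned LGALS3BP to 0.008 (0.008), and in dIDR3 against WT it turned IFI16 to -0.312 (-0.302). In WT against GFP it made the falls of IFI16, EIF2AK2 and PNPT1 smaller, at -0.611, -0.283 and -0.442, all still called. In Mut_IDR3 against GFP it ended the calls of EIF2AK2 (-0.010), PNPT1 (-0.130), IFI35 (0.193), IFI44 (-0.304), SP100 (-0.116) and APOL6 (-0.198). There it also gave calls to STAT2, IRF1, PARP10 and SAMHD1. No other alternative reversed a called value of a member, and the cause was not tested. The median GC content of the members was 46.3%, against 48.8% of the tested features. With the replicate block, 26 members were higher and 3 lower in WT against GFP and 2 were higher in dIDR3 against GFP, and 11 were higher in Mut_IDR3 against dIDR3; since the numbers do not pair the libraries, this is a hint about the data only. Of 240 values for single members under the block, 232 kept their direction and side of the threshold. Depth limits MX2, RTP4, IFI44L, SAMD9L, XAF1, EPSTI1 and CMPK2, which had few or no counts in at least 1 group.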

Other observations

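ISG15 was the most abundant member per kilobase of its longest transcript in WT only. It stood at 1572 CPM per kb in WT, 37.9 in Mut_IDR3, 33.1 in dIDR3 and 44.5 in GFP. LGALS3BP, which ranked first in the other 3 groups, stood at 196 CPM per kb in WT, 173 in Mut_IDR3, 142 in dIDR3 and 159 in GFP.

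The receptor genes of the type I and type II interferons, outside the 43 and named here after their values were seen, went different ways in WT against GFP. IFNAR1, a chain of the type I receptor, averaged 22.2 ± 1.69 CPM in WT and 36.3 ± 1.83 CPM in GFP (log2 fold change -0.71, adjusted p = 1.56e-05), and IFNGR1, of the type II receptor, had a log2 fold change of -0.44 (adjusted p = 0.00025). IFNGR2, its partner chain, averaged 81.6 ± 4.74 CPM in WT and 55.2 ± 2.12 CPM in GFP (log2 fold change 0.57, adjusted p = 4.48e-06). IL10RB, a shared chain of the type III receptor, rose by 0.40 (adjusted p = 0.00136). SOCS1, a feedback inhibitor of JAK kinases, averaged 3.35 ± 0.603 CPM in WT and 0.246 ± 0.0390 CPM in GFP, a 13.5-fold rise (adjusted p = 6.11e-07).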
